A study of Mus musculus with 2 samples.

Results

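8 genes of late keratinocyte differentiation were followed through the medullary epithelium of the mouse thymus: Ivl, Lor, Flg, Sbsn, Krtdap, Dmkn, Lypd3 and Hal. They were taken by symbol from the 55487 genes of the count matrix, and all 8 were found. Medullary thymic epithelial cells (mTEC) show thymocytes proteins of many other tissues, and part of them mature into cells that resemble those tissues, among them skin keratinocytes. The cells were sorted as mTEClo, the fraction with low MHC class II, from C57BL/6 mice, without Pdpn and CD104 on the surface. Each sample carried its own hash tag, an antibody against H2-Kb linked to a DNA barcode, and all went through 1 droplet run with 3' v3.1 chemistry. Hnf4dTEC (4 samples) had the genotype Foxn1(cre/+) Hnf4a(fl/fl) Hnf4g(-/-). Hnf4ctrl (3 samples) had Foxn1(cre/+) Hnf4a(fl/+) Hnf4g(+/-), so the controls also carried cre, 1 floxed copy of Hnf4a and 1 null copy of Hnf4g. Foxn1 drives cre in thymic epithelium, so Hnf4a was targeted there, while the Hnf4g allele was null in the whole animal. Hnf4a and Hnf4g encode nuclear receptors best known from liver and gut. Ages, and whether each sample was 1 animal, are not stated in the sources used here. The p-values set a genotype difference against the variation between these samples, whose independence is therefore not known.

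The deposited annotation placed 9185 cells in 15 classes, 5890 of them from Hnf4dTEC and 3295 from Hnf4ctrl. Each sample held 801 to 1652 cells and 10127838 to 25821970 UMIs (unique molecular identifiers, each counting 1 captured RNA molecule). The class named Keratinocyte held 768 cells, with a median of 11813 UMIs per cell. All 10 further keratinocyte markers checked (Krt1, Krt10, Krt80, Calm4, Casp14, Cnfn, Grhl1, Grhl3, Klk7 and Sprr1a) were higher in it than in any other class. They go with its name, but the classes were drawn from the same counts, so this is no independent check. Hnf4g was at 78.1 to 88.4 CPM (UMIs of a gene scaled to a fixed total per sample) in Hnf4dTEC samples and 116 to 122 CPM in Hnf4ctrl samples, and the groups did not overlap. Hnf4a was at 0.673 to 2.27 CPM in Hnf4dTEC samples and 1.68 to 3.18 CPM in Hnf4ctrl samples. 3' reads can lie outside the deleted part of either gene, so these levels do not measure the deletion.

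A keratinocyte that reaches the outer epidermis replaces its plasma membrane with the cornified envelope, a shell of proteins joined by transglutaminases and coated with lipid. Involucrin (Ivl) is laid down early as a scaffold, and loricrin (Lor) is the main filling protein of the envelope in skin. Filaggrin (Flg) bundles keratin filaments and is later broken down to amino acids. Histidine ammonia-lyase (Hal) converts the histidine so released to urocanic acid, a sunlight filter of the stratum corneum. Suprabasin (Sbsn), dermokine (Dmkn) and keratinocyte differentiation-associated protein (Krtdap) are secreted by suprabasal keratinocytes. Lypd3 (also called C4.4a) is a membrane-anchored Ly6-family protein of suprabasal epithelium. In the thymic medulla, cells of this kind are known around Hassall's corpuscles and as late stages after Aire expression.

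The genes fall into 2 blocks of neighbours and 2 single loci (GENCODE M21, GRCm38). Lor (chr3:92080271-92083142, minus strand), Ivl (chr3:92570902-92573735, minus strand) and Flg (chr3:93273523-93293686, plus strand) lie in the epidermal differentiation complex, with 19 further coding genes between Lor and Ivl and 30 between Ivl and Flg. On chromosome 7, Sbsn (chr7:30751471-30756134), Dmkn (chr7:30763756-30781063) and Krtdap (chr7:30787896-30791097) follow each other on the plus strand. No other coding gene starts between them, and the gaps measure 7.621 kb between Sbsn and Dmkn and 6.832 kb between Dmkn and Krtdap. Lypd3 (chr7:24636550-24641118, plus strand) stands 6110.352 kb before Sbsn, and Hal (chr10:93488768-93519304, plus strand) lies on another chromosome. 3 of the 8 overlap another annotated gene, Flg with Rplp0-ps1 and Sbsn with Tmem147os on the same strand, and Lypd3 with Gm26550 on the other strand. For Flg and Sbsn, molecules from the shared stretch could not be told apart.

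The bases before the starts are shown because the same short element recurs in them. Each run holds the 250 bases before the RefSeq start (GRCm38.p6), written 5′ to 3′ on the strand of the gene. Capitals mark the letters TGANTCA (N, any base), the core bound by AP-1 factors such as Jun and Fos, which reads the same on both strands. The windows are chr3:92083143-92083392 (minus) for Lor, chr3:92573736-92573985 (minus) for Ivl, chr3:93273296-93273545 (plus) for Flg, chr7:30751221-30751470 (plus) for Sbsn, chr7:30763506-30763755 (plus) for Dmkn and chr7:30787655-30787904 (plus) for Krtdap.
Lor: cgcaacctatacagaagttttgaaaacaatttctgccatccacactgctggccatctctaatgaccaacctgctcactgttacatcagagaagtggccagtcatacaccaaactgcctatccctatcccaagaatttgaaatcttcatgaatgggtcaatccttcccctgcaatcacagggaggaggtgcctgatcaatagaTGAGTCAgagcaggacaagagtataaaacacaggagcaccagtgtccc
Ivl: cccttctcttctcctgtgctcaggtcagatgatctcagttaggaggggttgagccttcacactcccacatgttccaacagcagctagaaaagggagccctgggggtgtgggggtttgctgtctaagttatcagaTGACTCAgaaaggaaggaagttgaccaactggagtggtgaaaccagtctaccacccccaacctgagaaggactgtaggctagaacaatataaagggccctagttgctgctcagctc
Flg: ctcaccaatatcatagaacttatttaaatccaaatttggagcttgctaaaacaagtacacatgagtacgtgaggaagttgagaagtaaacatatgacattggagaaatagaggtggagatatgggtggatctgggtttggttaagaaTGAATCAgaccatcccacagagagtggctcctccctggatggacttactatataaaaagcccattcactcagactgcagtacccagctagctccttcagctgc
Sbsn: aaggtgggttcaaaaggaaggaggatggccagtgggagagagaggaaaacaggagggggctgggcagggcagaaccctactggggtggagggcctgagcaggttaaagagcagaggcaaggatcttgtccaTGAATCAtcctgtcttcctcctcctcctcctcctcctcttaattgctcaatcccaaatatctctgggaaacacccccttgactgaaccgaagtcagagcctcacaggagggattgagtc
Dmkn: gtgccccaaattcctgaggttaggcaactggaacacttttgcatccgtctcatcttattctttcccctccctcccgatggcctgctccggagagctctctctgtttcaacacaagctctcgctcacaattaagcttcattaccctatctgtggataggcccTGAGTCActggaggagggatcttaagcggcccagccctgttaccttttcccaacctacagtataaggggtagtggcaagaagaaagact
Krtdap: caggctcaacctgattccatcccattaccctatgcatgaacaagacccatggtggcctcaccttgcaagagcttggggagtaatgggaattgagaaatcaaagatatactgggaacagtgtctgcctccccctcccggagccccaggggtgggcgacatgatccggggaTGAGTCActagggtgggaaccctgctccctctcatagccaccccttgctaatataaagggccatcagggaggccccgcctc

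All 8 genes had a RefSeq window, and 7 of the 8 held TGANTCA, against 6.87% of 27025 genes with a window of the same length. The exception was Lypd3. In Lor the element lay 48 to 42 bases before the start, in Krtdap 81 to 75, in Dmkn 89 to 83, in Flg 103 to 97, in Ivl 116 to 110 and in Sbsn 119 to 113. In Hal it lay farther out, 239 to 233 bases before the start. Among other genes of cornification (6 lists described below), 14 of the 82 with a window held it (17.1%). TATAAA, the letters of a TATA box, stood before 5 of the 8 genes (Ivl, Lor, Flg, Krtdap and Hal), on either strand, against 13% of all windows. Neither AACNGGTT, an element of Grainyhead-like factors, nor CAAAGTCCA, a core of HNF4 sites, occurred in these windows of the 8 genes on either strand. They were found in 1.71% and 0.381% of all windows. These matches describe letters only.

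Each of the 8 genes reached its highest level in Keratinocyte cells. The classes were drawn from the same counts, so the levels are a description, with no test. UMIs were summed over the cells of a class in each sample and divided by the total of that sum, which gives CPM; classes with at least 10 cells in a sample entered the mean and SD. 3' counting takes 1 end per molecule, so CPM were not scaled by gene length. The genes nevertheless differed in how far they were confined to that class: 94.2% of all Krtdap UMIs came from Keratinocyte cells, 89.9% of Ivl, 88.2% of Lor and 87.5% of Flg. The share was 74.9% for Dmkn, 74.8% for Sbsn and 63.7% for Lypd3, and 28.2% for Hal.

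Among the envelope and filament proteins, Ivl averaged 169 ± 34.1 CPM in Keratinocyte cells (SD, n = 7 samples), with 5.64 ± 4.85 CPM in Aire-expressing cells, 4.196 ± 5.93 CPM in Entero-hepato cells (n = 2) and 3.49 ± 3.40 CPM in Secretory cells next. The spreads of those 3 lower classes overlapped. In the 152 Microfold cells no Ivl UMI was found. Lor averaged 250 ± 189 CPM in Keratinocyte cells and 18.5 ± 27.6 CPM in Aire-expressing cells, where 5 cells held 78.8% of its UMIs. Elsewhere Lor stayed at 2.90 CPM or less. Flg stood at 804 ± 189 CPM in Keratinocyte cells, 48.5 ± 32.7 CPM in Secretory cells, 28.1 ± 21.3 CPM in Entero-hepato cells (n = 2) and 27.6 ± 21.9 CPM in Aire-expressing cells, and the last 3 overlapped.

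The 3 secreted products of the chromosome 7 block shared Keratinocyte cells as their first class and parted below it. Krtdap averaged 7293 ± 1539 CPM there, and its next class was Immature with 259 ± 122 CPM, followed by Secretory with 134 ± 120 CPM. Sbsn had 734 ± 124 CPM in Keratinocyte cells, 228 ± 57.2 CPM in Secretory cells and 82.5 ± 86.3 CPM in Microfold cells (n = 6). That last mean joins genotypes that differed, with 64.6, 224 and 150.1 CPM in Hnf4dTEC samples 1 to 3 and 7.51, 20.1 and 28.8 CPM in Hnf4ctrl samples, against 17.0 to 26.5 CPM of Sbsn in Aire-adjacent cells of the Hnf4ctrl samples. Dmkn had 2211 ± 410 CPM in Keratinocyte cells and then a broader tail. It reached 399 ± 84.4 CPM in Ciliated cells, 292 ± 74.2 CPM in Secretory cells, 220 ± 84.3 CPM in Aire-adjacent cells and 169 ± 74.7 CPM in Klk-rich cells (n = 5). Each of those neighbours in the order lay within 1 SD of the next except Ciliated and Secretory, whose means differed by more than either SD.

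Lypd3 was at 335 ± 45.6 CPM in Keratinocyte cells, 78.3 ± 10.9 CPM in Secretory cells and 22.4 ± 2.26 CPM in Tuft cells, 3 levels with no overlap of their spreads. Tuft cells, chemosensory epithelial cells, numbered 4118, and their 1205 UMIs made 22.9% of all Lypd3 UMIs. In single Tuft samples Lypd3 lay between 19.3 and 26.1 CPM. Hal did not follow the others. Its level was 278 ± 118 CPM in Keratinocyte cells, 249 ± 24.7 CPM in Aire-expressing cells and 214 ± 75.3 CPM in Aire-adjacent cells, and these 3 did not differ beyond their spread. Aire-expressing cells, which hold the regulator that switches on tissue-restricted genes, gave 37.2% of all Hal UMIs, more than Keratinocyte cells did.

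**Figure D1:**
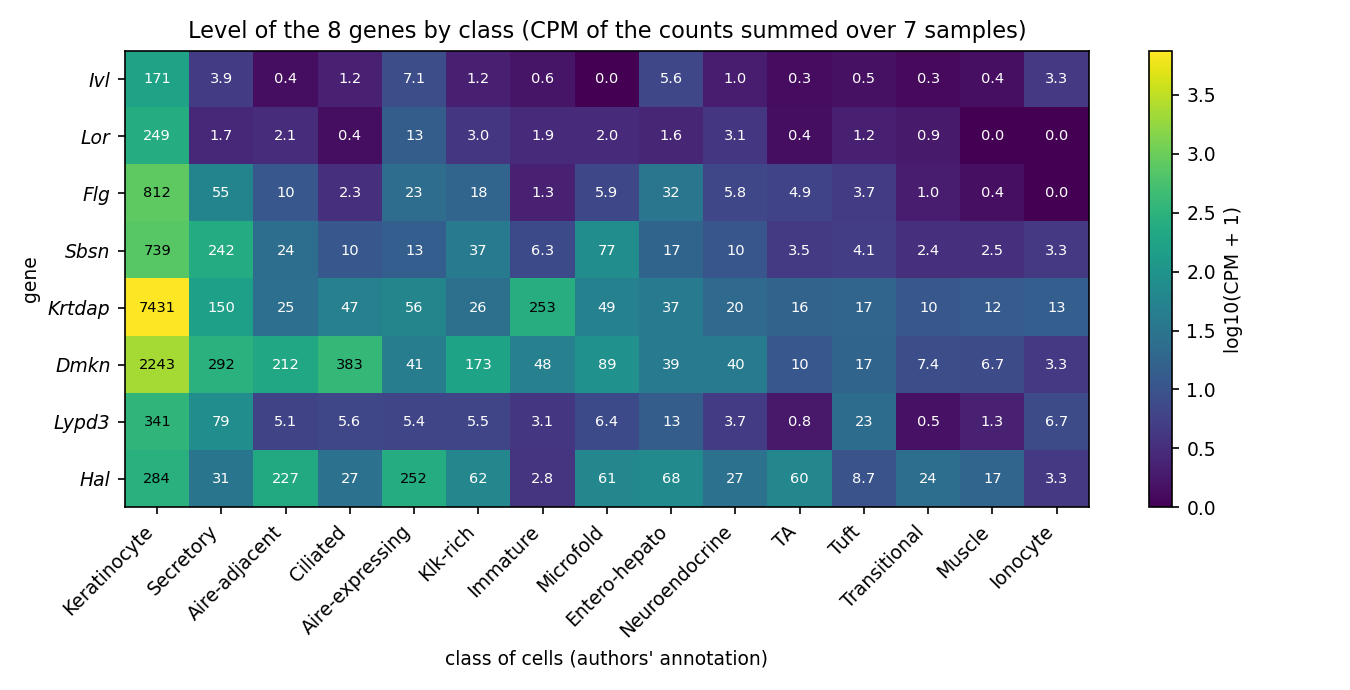
Level of each of the 8 genes (rows) in each of the 15 classes (columns, ordered by the sum of the 8 levels), as CPM of the counts summed over 7 samples; colour is log10(CPM + 1). All 8 rows are highest in the Keratinocyte column, at 7431 CPM for Krtdap, while Hal is at 284 CPM there and 252 CPM in Aire-expressing cells.

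The proportions between the genes changed from class to class. Per 100 Krtdap UMIs, Keratinocyte cells held 3.82 Hal, 4.59 Lypd3, 9.94 Sbsn and 30.2 Dmkn UMIs. Aire-expressing cells held 448 Hal UMIs per 100 of Krtdap, Tuft cells 132 of Lypd3, Secretory cells 161 of Sbsn and Ciliated cells 818 of Dmkn. Immature cells went the other way, with 1.12 Hal and 18.9 Dmkn UMIs per 100 of Krtdap. The part of free RNA caught in droplets was not tested.

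Single Keratinocyte cells were uneven. To compare cells at 1 depth, each was thinned at random to 5000 UMIs, which left out 63 Keratinocyte cells. Of the remaining 705 cells, 74.0% held a Dmkn UMI, 58.6% Krtdap, 55.6% Lypd3, 53.3% Sbsn, 41.0% Hal, 32.6% Flg, 27.0% Ivl and 8.94% Lor. Counting error alone gives exact 95% intervals of 6.94 to 11.3% for Lor and 70.6 to 77.2% for Dmkn. In Tuft cells, which have a similar median depth (12186 UMIs, against 11813 in Keratinocyte cells), the thinned shares were 7.32% for Dmkn, 6.47% for Krtdap, 7.96% for Lypd3, 2.16% for Sbsn, 3.81% for Hal, 1.65% for Flg, 0.283% for Ivl and 0.541% for Lor. In TA cells the shares of 5.97% for Krtdap and 3.41% for Dmkn lay below those in Tuft cells. Whether shares this low come from the cells or from free RNA was not tested. For Lypd3 the share in Tuft cells itself exceeded that in Neuroendocrine cells, 2.17% at a median of 12224 UMIs.

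Lor was carried by few cells. 9 cells held 50% or more of its 2440 Keratinocyte UMIs, and the 5 highest cells 36.3%, with 359 UMIs in 1 cell. Ivl spread more evenly, with 43 cells for the same part of its 1679 UMIs and at most 34 UMIs in a cell. Lypd3 needed 105 cells and Dmkn 90. Krtdap reached 1654 UMIs in 1 cell, and 49 cells held 50% or more of its 72782 UMIs.

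The genes were often found in the same cells. Of the 63 cells with a Lor UMI, 98.4% also held Dmkn, 96.8% Krtdap, 93.7% Sbsn, 84.1% Lypd3, 77.8% Flg, 73.0% Hal and 71.4% Ivl. Of the 642 cells without Lor, 71.7% held Dmkn, 54.8% Krtdap, 49.4% Sbsn and 22.6% Ivl. Conversely, 11.9% of the 522 cells with Dmkn held Lor, a share bound to be low since only 63 cells held Lor. Of the 190 cells with Ivl, 92.1% held Krtdap and 23.7% held Lor, against 46.2% and 3.50% of the 515 cells without Ivl. The order of such shares follows largely from how many cells held each gene, so no sequence of the genes was read from it. Hal was tied least closely to Krtdap: 69.9% of cells with Hal held Krtdap, and 50.7% of cells without it did.

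In all, 75 of the 705 cells held none of the 8 genes, 345 (48.9%) held at least 4, 155 (21.99%) at least 6 and 25 (3.55%) all 8. The mean number per cell was 3.51 in Keratinocyte cells, 1.36 in Secretory cells and 0.142 to 0.992 in the other classes of more than 30 thinned cells. Outside Keratinocyte cells, 24 of 434 Secretory cells (5.53%) held at least 4, and the other 13 classes had 0 to 3 such cells each. Scrublet, a doublet caller, marked 12 of the 345 Keratinocyte cells and 1 of the 24 Secretory cells. These cells belong to the same 7 samples and are not replicates.

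**Figure D2:**
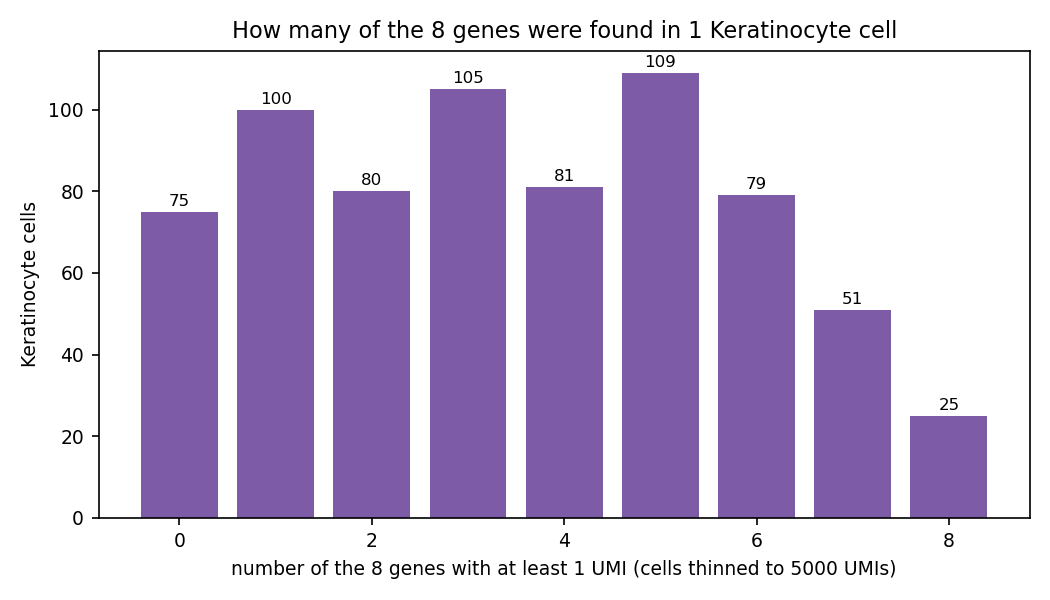
Number of Keratinocyte cells (y axis) by how many of the 8 genes had at least 1 UMI in the cell after thinning to 5000 UMIs (x axis), over 705 cells of 7 samples. The counts spread widely, from 75 cells with none of the genes to 25 cells with all 8, and the tallest bar is 109 cells with 5 genes.

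Across the 89 sums of 1 class in 1 sample, the 8 genes varied together to different degrees. Pearson's r of log2(CPM + 1) was 0.81 for Ivl with Krtdap, 0.80 for Ivl with Flg, 0.79 for Ivl with Lor and 0.79 for Sbsn with Dmkn. Hal stood lowest, with 0.24 against Krtdap and 0.25 against Lypd3. The genes whose pattern was most like a member's, of 19289 compared, were Aadacl2 for Ivl (r = 0.89), Lypd5 for both Lor (r = 0.83) and Flg (r = 0.82), and Slc34a2 for Sbsn (r = 0.87). For Dmkn it was Cebpb, a transcription factor of differentiating epithelium (r = 0.90), for Lypd3 Adgrf4 (r = 0.83), with Grhl1 next (r = 0.82), and for Hal Vmo1 (r = 0.80). Against the sum of the 8, Cebpb (r = 0.83), the suprabasal keratin Krt77 (r = 0.82), Sfn (r = 0.82), the lipid transporter Abca12 (r = 0.80) and Endod1 (r = 0.80) came first. The sums share 1 droplet run and 7 samples, so these values are descriptions.

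Other genes of cornification were read from 6 lists with 113 genes. In Keratinocyte cells 98 of them had UMIs, and 59 were highest there. Among envelope precursors (34 of 49 with UMIs, 17 highest there), Sprr1a averaged 1260 ± 395 CPM and Cnfn 502 ± 104 CPM (SD, n = 7). Rptn, a filaggrin relative, had 775 ± 274 CPM but 912 CPM in Secretory cells. Many Lce genes showed another distribution. Lce3b had 1 UMI in Keratinocyte cells of 1521 in all, and its highest level, 53.8 CPM, was in Aire-expressing cells; near-identical Lce and Sprr2 copies may share reads. Of the keratins and desmosome genes, 12 of 15 were highest in Keratinocyte cells, among them Dsp (1543 ± 109 CPM) and Krt10 (1485 ± 346 CPM), and Perp averaged 960 ± 41.7 CPM in these cells. Of the barrier lipid enzymes, 10 of 12 were highest there, led by Elovl4 (443 ± 222 CPM), with Sdr9c7 at 105 ± 10.5 CPM and Abca12 at 102 ± 14.9 CPM.

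Enzymes that process filaggrin and join the envelope were also present. Asprv1, the protease that cuts profilaggrin in skin, averaged 1078 ± 134 CPM in Keratinocyte cells, Blmh, which breaks filaggrin down, 208 ± 26.6 CPM, and Sult2b1, a cholesterol sulfotransferase, 110 ± 18.4 CPM. 6 of these 11 genes were highest there. Among regulators, 8 of 14 were highest in Keratinocyte cells. Klf4 was at 315 ± 31.6 CPM, and Trp63 at 340 ± 40.7 CPM with a higher level of 478 CPM in Immature cells. Hes1, a target of Notch signalling, averaged 294 CPM in Keratinocyte cells and 514 CPM in Secretory cells. Of the Ly6 and calcium-binding genes, Calm4 (2044 ± 550 CPM) and Calml3 (884 ± 61.8 CPM) were highest in Keratinocyte cells, while Ly6d (3213 ± 367 CPM) was higher in Secretory cells at 4157 CPM.

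Loss of both Hnf4 genes was compared with the controls to see whether these genes depended on it. Over all cells, none of the 8 differed between Hnf4dTEC and Hnf4ctrl by edgeR's quasi-likelihood test with Benjamini-Hochberg adjustment over 21187 genes, at an adjusted p under 0.05. The background was 0.184% of genes called (39 genes, 1 higher and 38 lower in Hnf4dTEC). 6 of the 8 log2 fold changes lay below 0 and 2 above, from -0.30 (Krtdap) to 0.14 (Hal), with a median of -0.17 against 0.0038 over all genes tested. The other 6 log2 fold changes were -0.29 for Dmkn (SE 0.20), -0.24 for Ivl (SE 0.29), -0.18 for Sbsn (SE 0.21), -0.16 for Flg (SE 0.24), -0.11 for Lypd3 (SE 0.18) and 0.13 for Lor (SE 0.54). Krtdap averaged 534 ± 147 CPM in Hnf4dTEC and 656 ± 183 CPM in Hnf4ctrl, and Hal 73.4 ± 14.2 CPM in Hnf4dTEC and 66.1 ± 27.5 CPM in Hnf4ctrl, both scaled by TMM. In a sum over all cells, fewer cells of a type and less RNA per cell cannot be told apart. Gene by gene, DESeq2 called none of the 8 over all cells either, and none had an unadjusted p under 0.05.

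Keratinocyte cells made 8.66, 8.71, 8.13 and 7.06% of the cells of the 4 Hnf4dTEC samples, against 10.6, 8.09 and 8.11% in the 3 Hnf4ctrl samples. The groups overlapped. The means were 8.14 ± 0.764% in Hnf4dTEC and 8.94 ± 1.45% in Hnf4ctrl (SD), and an exact two-sided permutation test over 35 splits gave p = 0.571. Hnf4ctrl 1 set the direction of that difference of -0.793 percentage points, which was 0.0449 without it.

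Within Keratinocyte cells the 8 genes were again not called, against a background of 0.0799% (9 of 11267 genes, 2 higher and 7 lower in Hnf4dTEC). Values are given as CPM scaled by edgeR's TMM factors. Krtdap had 8630, 5033, 5976 and 8648 CPM in Hnf4dTEC samples 1 to 4, against 7524, 6877 and 9411 CPM in Hnf4ctrl samples 1 to 3. The groups overlapped, and edgeR gave -0.17 on the log2 scale (SE 0.19, adjusted p = 0.904). Sbsn had 864, 505, 678 and 719 CPM in Hnf4dTEC samples, against 889, 764 and 832 CPM in Hnf4ctrl samples. 3 of the 4 Hnf4dTEC samples lay below all controls, and the log2 fold change of -0.26 had a 95% interval of -0.61 to 0.091 (edgeR adjusted p = 0.768). Dmkn averaged 2111 ± 456.5 CPM in Hnf4dTEC (SD, n = 4) and 2452 ± 373 CPM in Hnf4ctrl (n = 3), with overlapping samples.

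The envelope genes also overlapped between the genotypes in Keratinocyte cells. Ivl averaged 167 ± 32.7 CPM in Hnf4dTEC samples and 180 ± 45.5 CPM in Hnf4ctrl samples, and Flg 820 ± 260 CPM in Hnf4dTEC samples and 820 ± 94.5 CPM in Hnf4ctrl samples. Lypd3 averaged 331 ± 28.2 CPM in Hnf4dTEC samples and 356 ± 72.3 CPM in Hnf4ctrl samples. Their 95% intervals of the log2 fold change were -0.55 to 0.30 for Ivl, -0.47 to 0.47 for Flg and -0.42 to 0.20 for Lypd3. Changes within those bounds are compatible with these counts. The intervals are not adjusted for the number of genes and are not limits of detection.

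Lor and Hal had the widest spread for their means in Hnf4dTEC, and the fourth sample was highest in both. Lor had 199, 96.8, 203 and 673 CPM in Hnf4dTEC samples, against 227, 154 and 229 CPM in Hnf4ctrl samples. The fourth Hnf4dTEC sample was the highest of all 7, and 1 of its 97 Keratinocyte cells held 359 of its 886 Lor UMIs (40.5%). By edgeR the log2 fold change was 0.51 with an SE of 0.52 (adjusted p = 0.884), and it was -0.30 without that sample. Hal had 287, 276, 204 and 532 CPM in Hnf4dTEC samples, against 200, 187 and 294 CPM in Hnf4ctrl samples. Again the fourth Hnf4dTEC sample was highest, and the others overlapped the controls (log2 fold change 0.50, SE 0.29, edgeR adjusted p = 0.760). In that sample 35.6% of the thinned Keratinocyte cells held at least 6 of the 8 genes, against 11.1 to 24.8% in the other 3 Hnf4dTEC samples and 17.6 to 26.7% in Hnf4ctrl samples.

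**Figure D3:**
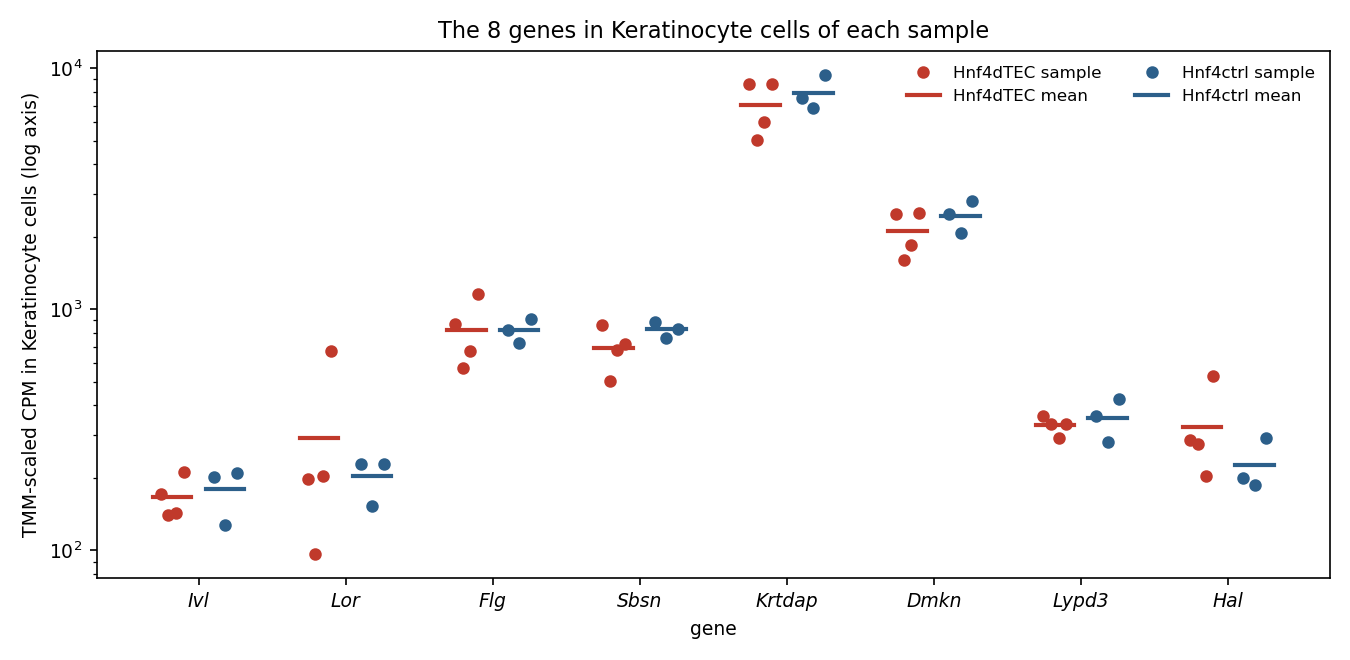
TMM-scaled CPM of each of the 8 genes in Keratinocyte cells (log axis), with 1 point per sample, 4 of Hnf4dTEC (left, red) and 3 of Hnf4ctrl (right, blue); bars are group means. The groups overlap for all 8 genes, and the Hnf4dTEC sample at 673 CPM of Lor lies above the other 6.

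None of the 76 other cornification genes tested in Keratinocyte cells was called, 30 with a log2 fold change above 0 and 46 below. Over all cells, 98 were tested and none was called, 51 above 0 and 47 below. The other 10 classes with at least 3 samples of 10 or more cells per genotype were fitted in the same way. Genes called made 3.03% of those tested in Microfold cells, 0.389% in Neuroendocrine, 0.0881% in Tuft and 0.0314% in Secretory cells, and 0% in Aire-adjacent, Aire-expressing, Ciliated, Immature, TA and Transitional cells. In those 6 classes, 255 to 666 genes had an unadjusted p under 0.05. Over the 11 classes, 49 tests of a member could be made, and 1 passed: Sbsn in Microfold cells.

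Microfold cells resemble the M cells of gut and airway epithelium that take up antigen. The fit used 3 Hnf4dTEC samples, since the fourth held 8 such cells and was left out, and 3 Hnf4ctrl samples. Sbsn had 71.1, 250 and 167 CPM in Hnf4dTEC samples 1 to 3, against 8.20, 22.5 and 34.6 CPM in Hnf4ctrl samples 1 to 3. All 3 Hnf4dTEC samples lay above all 3 controls, and Sbsn passed the test (log2 fold change 2.77, SE 0.53, 95% interval 1.60 to 3.94, adjusted p = 0.0231 by edgeR). Genes called higher in Hnf4dTEC made 0.687% of the 4656 tested there. The raw counts were small, with 18, 64 and 47 UMIs in the Hnf4dTEC samples, against 2, 6 and 15 UMIs in the Hnf4ctrl samples.

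Those UMIs came from few cells. An Sbsn UMI was found in 7 of 20, 10 of 22 and 6 of 26 Microfold cells of Hnf4dTEC samples 1 to 3, and in 3 of 8 of the sample left out, against 2 of 18, 6 of 25 and 6 of 33 in the controls. The highest cell held 10, 20 and 30 UMIs in the 3 Hnf4dTEC samples, and 1, 1 and 10 UMIs in the controls. Without the highest cell of each sample, a check added after seeing the data, the Sbsn level was 29.7, 165 and 58.0 CPM in Hnf4dTEC, against 4.10, 17.6 and 10.0 CPM in Hnf4ctrl. The samples still did not overlap, but Sbsn no longer passed the filter on low counts and was not tested. The call also missed the threshold without Hnf4ctrl 1 (edgeR adjusted p = 0.0725), Hnf4ctrl 2 (0.0735), Hnf4dTEC 2 (0.0611) or Hnf4dTEC 3 (0.0585).

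Some summed marker levels, as unscaled CPM, also differed between the genotypes in the Microfold cells. The 8 entero-hepato markers summed to 2108 to 2932 CPM in Hnf4dTEC and 7064 to 12381 CPM in Hnf4ctrl, and none of them was at 0. The 8 secretory markers summed to 593 to 767 CPM in Hnf4dTEC and 278 to 449 CPM in Hnf4ctrl, with Reg1 and Scgb3a1 at 0 in Hnf4dTEC and Muc5b and Scgb3a1 at 0 in Hnf4ctrl. Microfold markers summed to 12159 to 15938 CPM in Hnf4dTEC and 17039 to 17664 CPM in Hnf4ctrl, and the 4 cortical thymic markers to 68.2 to 99.0 CPM in Hnf4dTEC and 123 to 195 CPM in Hnf4ctrl. None of these 4 sums overlapped between the genotypes, and they were the only ones of the marker lists compared to separate. All other lists overlapped, among them the Aire-stage, tuft, neuroendocrine, ciliated and myeloid or B markers and the members themselves. With 3 samples per genotype some of many sums can separate by chance, and no sum was tested. The 10 keratinocyte markers that are not members summed to 268 to 506 CPM in Hnf4dTEC and 225 to 816 CPM in Hnf4ctrl, and these overlapped. The part of such cells or RNA in the Sbsn result was not tested. Scrublet marked 5 of the 152 Microfold cells, and without marked cells Sbsn had an edgeR adjusted p of 0.0116 at a log2 fold change of 2.98.

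The neighbours of Sbsn did not share the call. Dmkn had 67.1, 300.5 and 67.5 CPM in Hnf4dTEC Microfold cells, against 16.4, 15.02 and 104 CPM in Hnf4ctrl. 1 control lay above 2 of the 3 Hnf4dTEC samples, and the log2 fold change of 1.51 (SE 0.74) had an edgeR adjusted p of 0.350. For Hal edgeR gave 0.65 on the log2 scale (SE 0.66, adjusted p = 0.714). Krtdap, in CPM without TMM scaling, was at 10.8, 17.5 and 9.58 in Hnf4dTEC and 22.5, 13.4 and 152 in Hnf4ctrl. In the third Hnf4ctrl sample 1 cell held 66 of its 79 UMIs. Krtdap was too low to be tested, as were Ivl, Lor, Flg and Lypd3. Among 19 other cornification genes tested in these cells, Rptn and S100a16 were higher in Hnf4dTEC and none was lower. Of all 4656 genes tested there, 3.03% were called, and 0.687% were called higher in Hnf4dTEC. Rptn averaged 965 ± 419 CPM in Hnf4dTEC and 160 ± 163 CPM in Hnf4ctrl (log2 fold change 2.52, SE 0.59, edgeR adjusted p = 0.0485, n = 3 each). S100a16, a calcium-binding protein, averaged 180 ± 21.2 CPM in Hnf4dTEC and 62.9 ± 16.1 CPM in Hnf4ctrl (log2 fold change 1.48, SE 0.26, edgeR adjusted p = 0.0182). The Hnf4dTEC sample left out had, unscaled, 1558 CPM of Rptn (129 UMIs) and 72.5 CPM of S100a16 (6 UMIs). On that scale the Hnf4ctrl samples had 56.3, 63.6 and 290 CPM of Rptn and 41.3, 60.3 and 63.4 CPM of S100a16.

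**Figure D4:**
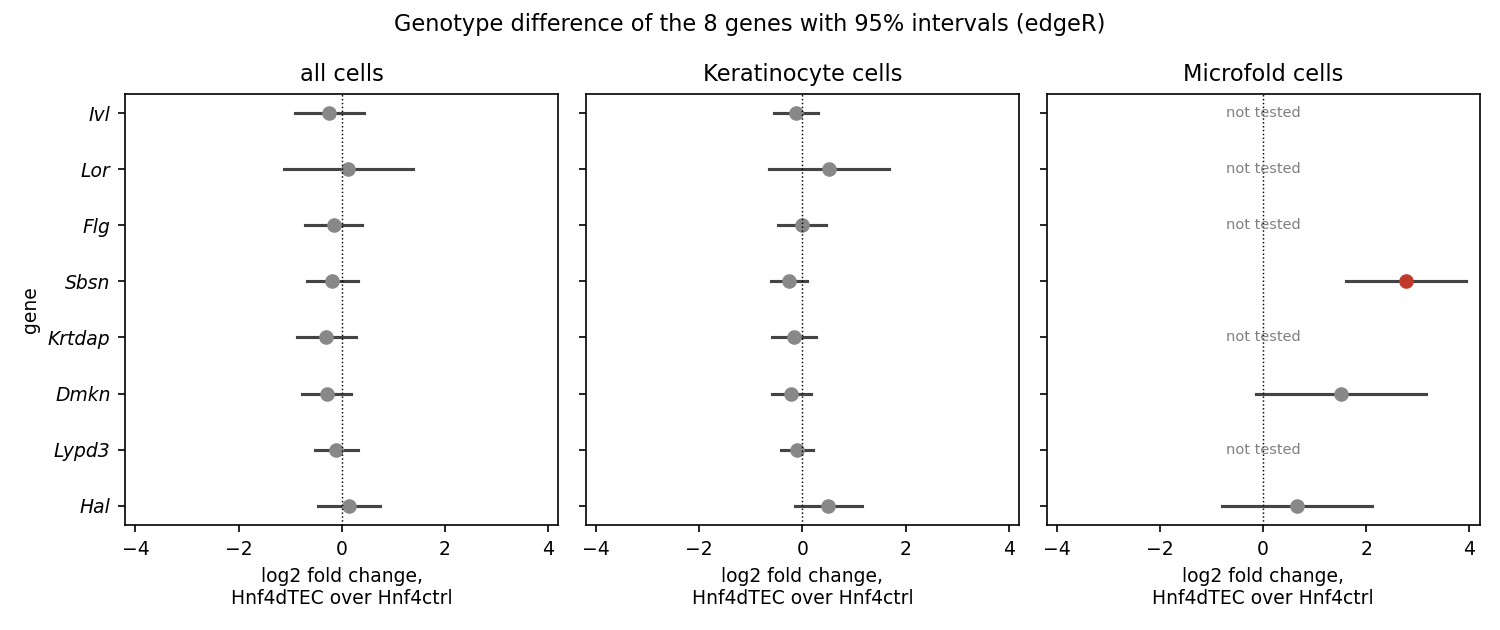
Log2 fold change (Hnf4dTEC over Hnf4ctrl, x axis) of each of the 8 genes (y axis) over all cells, in Keratinocyte cells and in Microfold cells, with edgeR's 95% intervals; red marks an adjusted p under 0.05. Only Sbsn in Microfold cells, at 2.77, is red, and 5 genes were too low to be tested there.

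Whether the genotype difference of Sbsn itself differed between Microfold and Keratinocyte cells was tested with limma on the within-sample difference of the classes. The difference of the log2 fold changes was 2.82 (SE 0.63), which did not pass after adjustment over 4541 genes (limma adjusted p = 0.128). Of all genes, 0.11% passed, and 527 genes had an unadjusted p under 0.05. Dmkn gave 1.94 (limma adjusted p = 0.343) and Hal 0.86 (limma adjusted p = 0.612). A genotype effect particular to Microfold cells was therefore not shown.

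**Figure D5:**
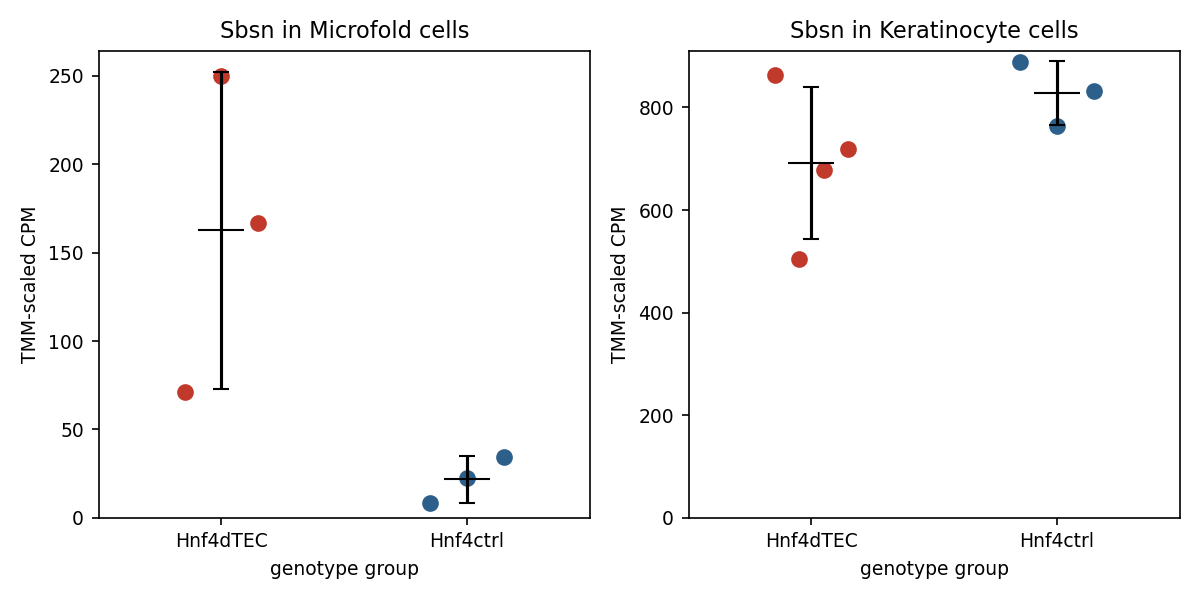
TMM-scaled CPM of Sbsn in Microfold cells (left panel) and Keratinocyte cells (right panel), with 1 point per sample of Hnf4dTEC (red) and Hnf4ctrl (blue), and mean ± SD in black. In Microfold cells the 3 Hnf4dTEC points at 71.1 to 250 CPM lie above the 3 Hnf4ctrl points at 8.20 to 34.6 CPM, while in Keratinocyte cells the groups overlap.

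In Secretory cells, the second class for Sbsn, Flg and Lypd3, 6 of the 8 genes were tested and none was called (lowest edgeR adjusted p = 0.689). Sbsn had 210, 256, 351 and 250 CPM in Hnf4dTEC samples, against 207, 167 and 201 CPM in Hnf4ctrl samples. The lowest Hnf4dTEC sample (210 CPM) lay only just above the highest Hnf4ctrl sample (207 CPM). The log2 fold change of 0.49 (SE 0.19) did not pass after adjustment, and the share of all genes without overlap is not reported here. Flg had 74.3, 44.0, 48.0 and 104 CPM in Hnf4dTEC samples, against 0, 51.4 and 26.5 CPM in Hnf4ctrl samples (log2 fold change 1.13, SE 0.49, edgeR adjusted p = 0.746). In the same cells the log2 fold changes of Hal (1.11), Krtdap (0.94), Dmkn (0.05) and Lypd3 (-0.10) had unadjusted p-values above 0.05, and Ivl and Lor were too low to be tested. In Aire-expressing cells, where all 8 were tested, Hal had 241, 274, 298 and 232 CPM in Hnf4dTEC samples, against 251, 213 and 276 CPM in Hnf4ctrl samples, and the groups overlapped. The log2 fold changes there were 0.08 for Hal, 0.54 for Ivl, 0.28 for Krtdap, -0.19 for Dmkn, -0.41 for Flg, -0.60 for Sbsn, -1.26 for Lypd3 and -1.56 for Lor. None of the 8 had an unadjusted p under 0.05 in these cells. Sbsn in Neuroendocrine cells gave the one negative log2 fold change with an unadjusted p under 0.05, -1.002 (SE 0.39, edgeR adjusted p = 0.504), at 7.34 ± 2.93 CPM in Hnf4dTEC and 15.98 ± 6.91 CPM in Hnf4ctrl.

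The remaining tests in Neuroendocrine cells gave log2 fold changes of -0.79 for Krtdap, 0.04 for Dmkn and 0.52 for Hal. In Tuft cells the range was -0.20 (Hal) to 0.20 (Flg), with 0.17 for Sbsn, 0.07 for Krtdap, 0.04 for Lypd3 and -0.02 for Dmkn. Ciliated cells gave 2.18 for Krtdap, where 1 cell held 169 of 227 UMIs, -0.20 for Dmkn and 0.16 for Hal. Aire-adjacent cells gave 0.41 for Sbsn, 0.13 for Hal, 0.03 for Krtdap and -0.15 for Dmkn. In Immature cells Krtdap was at -0.49 and Dmkn at 0.12, and in Transitional cells Krtdap was at -0.53 and Hal at -0.04. TA cells gave 0.25 for Krtdap, 0.68 for Dmkn and 0.35 for Hal. By edgeR none of the tests just listed had an unadjusted p under 0.05, and members not named were too low to be tested in that class.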

How the data were processed

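The deposited matrix holds raw UMI counts per gene and barcode, and per the file headers it was written by Cell Ranger. A deposited cell table gives the authors' class and hash assignment, and per the submitters' processing notes Cell Ranger 6.1.0 and Seurat 4.0.2 were used; the header names Cell Ranger 7.0.0. The filter on cells is not given in the sources used here; the annotated cells held 1254 genes or more, with mitochondrial UMIs reaching 7.50%.

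Counts of the 9185 annotated cells were summed per sample and class. Genotypes were compared with edgeR 4.0.16 (filterByExpr, TMM, quasi-likelihood test, Benjamini-Hochberg adjustment over all genes tested) over all cells and in the 11 classes with at least 3 samples per genotype of at least 10 cells. The difference between classes used limma 3.58.1 on log2 CPM with a prior count of 2. DESeq2 1.42.0 was an alternative. Scripts were tested on simulated data. Standard errors follow from the F statistic. Cells were thinned to 5000 UMIs; 319 Hnf4dTEC and 192 Hnf4ctrl cells were shallower and left out. Intervals of shares are exact (Clopper-Pearson) and cover counting error only.

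Scrublet (scanpy 1.11.5), run on 14506 barcodes with at least 1000 genes, marked 184 annotated cells (2.00%), which stayed in except in an alternative; it marked 573 of 3025 barcodes outside the annotation that carried 2 tags (18.9%). 45 cells had most counts of another sample's tag. Replicate numbers recur in both genotypes, and the main fits did not treat them as pairs.

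The text names all 8 members in every comparison, other list genes that passed a test or were among the 3 of their list with the highest mean in Keratinocyte cells, and the genes most alike by correlation, of which usually the first per member is printed and the one for Krtdap is not reported here; Lce3b was chosen after its values were seen. The members and lists were chosen with earlier results of these data known. The motifs were chosen for this description. The library of hash tags alone was not used here.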

Additional observations from a re-analysis of the deposited data

Results flagged for a closer look

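The matrix holds 8904 barcodes that the deposited annotation leaves out, and all 8 genes had UMIs there. These barcodes held 58774 Krtdap, 22732 Dmkn, 7355 Hal, 7285 Sbsn, 6692 Flg, 3707 Lypd3, 2982 Lor and 1176 Ivl UMIs, which is 38.6% (Ivl) to 51.9% (Lor) of all UMIs of each gene in the matrix. Levels were close to those of annotated cells for most, such as 598 CPM of Krtdap in barcodes without a class, against 579 CPM in annotated cells. Lor stood at 30.3 CPM in barcodes without a class, against 20.7 CPM in annotated cells. Of its 2982 UMIs there, 2385 were in barcodes that carried 2 hash tags. Such barcodes also held most of the UMIs without a class of every other member, such as 37909 of 58774 for Krtdap and 753 of 1176 for Ivl. No sample of the 4 Hnf4dTEC samples stood apart by Dixon's test in 17 values tested, which were the 8 genes over all cells and in Keratinocyte cells and the Keratinocyte share; for Lor in Keratinocyte cells the gap of the highest sample was 0.816 of the range, just under the critical value.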

How the results depend on the processing

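No setting tried gave a call of a member over all cells or in the class difference. Within classes, where Sbsn in Microfold cells was the 1 call, DESeq2, the check without cells of another tag and the check without marked doublets kept that call. Leaving out 1 sample gave 0 to 1 calls. A minimum of 20 cells per sample gave 0 calls, since Microfold could then not be fitted, and leaving out the Microfold cell of most Sbsn UMIs in each sample, chosen after seeing the data, gave 0. With no filter on low counts 87 tests of a member could be made, against 49 in the main fits, and 8 passed. In Microfold cells Sbsn (2.73) and Dmkn (1.47) were higher and Krtdap was lower. For Krtdap there, 1 cell held 66 of the 79 UMIs of the third Hnf4ctrl sample. Krtdap was higher in Ciliated cells, Flg, Krtdap and Hal were higher in Secretory cells, and Flg was lower in Aire-adjacent cells. The share of all genes called in this setting is not reported here, and the cause was not tested.

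Of 286 recomputed log2 fold changes, 254 kept direction and side of the threshold and 27 changed sign, none of those passing the test. Without Keratinocyte cells the values over all cells were 0.42 for Ivl, -0.70 for Lor, 0.047 for Flg, 0.65 for Sbsn, 0.13 for Krtdap, 0.0070 for Dmkn and 0.18 for Lypd3. Leaving out 1 sample gave, over all cells, values of -0.52 to 0.10 for Ivl, -0.46 to 0.53 for Lor, -0.31 to 0.0755 for Flg, -0.32 to 0.11 for Sbsn, -0.27 to 0.11 for Lypd3 and -0.030 to 0.55 for Hal. In Keratinocyte cells it gave -0.31 to 0.0098 for Ivl, -0.30 to 0.80 for Lor, -0.22 to 0.14 for Flg and -0.25 to 0.038 for Lypd3. Flg in Keratinocyte cells was 0.0058 with no filter, 0.0046 without cells of another tag and 0.052 without marked cells. The class difference of Hal was -0.30 with at least 5 cells.

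The deviations of same-numbered samples correlated at 0.23, 0.084 and 0.043, against -0.35 to 0.41 for samples of unlike number. So few values cannot decide whether the numbers pair the samples. With the replicate block, Sbsn in Microfold cells stood at 2.81 on the log2 scale (adjusted p = 0.0149 by edgeR), the calls of members over all cells and within classes numbered 0 and 1, and Lor turned to -0.44 over all cells and -0.33 in Keratinocyte cells.

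The Keratinocyte share differed by -1.22 to 0.0449 percentage points when 1 sample was left out. Unthinned shares of Keratinocyte cells were 34.8% for Ivl, 62.8% for Sbsn, 67.1% for Lypd3 and 54.8% for Hal, and at 3000 UMIs Lypd3 was at 43.9%. The 8 to 33 Microfold cells per sample limit the precision there.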
